A study of Mus musculus with 12 samples.

Results

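Spinal cord astrocytes that react to injury or disease were read through 9 genes, Gfap, Vim, Lcn2, Osmr, Cd44, Aqp4, S100a10, Steap4 and Cp. These were chosen by symbol, with earlier results of these data known, so the choice was not independent of the data. All 9 were found among the 45906 genes counted, and all 9 were among the 20155 genes with enough counts to be tested. The counts came from RNA of the whole spinal cord of 12 mice aged 7 months. Each genotype had 3 mice, and the genotypes were Plekhg5+/+ and Plekhg5-/-, both without the transgene, and Plekhg5+/+ SOD1-G93A and Plekhg5-/- SOD1-G93A. SOD1-G93A is a human transgene with a mutation that causes amyotrophic lateral sclerosis (ALS), here in a low-copy line in which disease progresses slowly, and Plekhg5 encodes a guanine nucleotide exchange factor for Rab26 that acts in autophagy. The mice were kept on a C57BL/6 background. The paper states that sex was not considered and was equally distributed. The 2 transgenic genotypes had the transgene in common and the 2 Plekhg5-/- genotypes the loss of Plekhg5. The comparisons address how the genes differ with the transgene, and whether this depends on Plekhg5.

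Astrocytes respond to damage of the nervous system by a graded change called astrogliosis. They enlarge their processes, build up the intermediate filaments GFAP and vimentin, and change adhesion molecules, channels, cytokine receptors and secreted proteins. Microglia, the resident macrophages, release cytokines that set off much of this response, and genes of reactive astrocytes have been grouped as pan-reactive, as neuroinflammatory (A1-type) or as injury-type (A2-type), a group to which S100a10 belongs. None of the genes is restricted to astrocytes: vimentin and CD44 are also made by microglia, endothelial cells and fibroblasts, and lipocalin 2, the product of Lcn2, is a protein of neutrophil granules. In RNA of a whole tissue, fewer cells of a type and less RNA per cell cannot be told apart.

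The libraries held 30415643 to 38743628 counts. Values per library are normalized counts, in counts per 1000000 counts of the library (CPM) after scaling with TMM factors. Plekhg5 had 19.4 to 25.0 CPM in the 6 Plekhg5+/+ libraries of either kind and 3.28 to 4.72 CPM in the 6 Plekhg5-/- libraries, and human SOD1 had 4421 to 5638 CPM in the transgenic libraries and at most 5.47 CPM in the others, so that every library went with its label. Transcripts of the Y chromosome were present in 3 of 3 Plekhg5+/+, 2 of 3 Plekhg5-/-, 2 of 3 Plekhg5+/+ SOD1-G93A and 1 of 3 Plekhg5-/- SOD1-G93A libraries. By these transcripts, sex was not balanced between the genotypes compared. The 14 general astrocyte markers were all detected in every library, and their summed level lay between 9036 and 10910 CPM throughout. Among the Plekhg5+/+ SOD1-G93A libraries, replicate 1 had the highest level of Gfap, Vim, Osmr, Cd44, Aqp4 and S100a10, and several results below are also given without it.

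The bases upstream of the start sites are shown for the 3 genes that passed the test in SOD1-G93A mice, Gfap, Vim and Cd44, and for 2 that did not, Lcn2 and Steap4. They were taken from the RefSeq promoter table of GRCm38.p6, the build of the deposited annotation, in which 7 of the 9 genes had an entry. Each is the 250 bases before the start, written 5′ to 3′ on the strand of the gene. Capitals mark motifs of transcription factors known from inflammatory signalling, searched on both strands. These were TTCNNNGAA for STAT factors, TGANTCA for AP-1 and GGGNNNNNCC for NF-kB, and neighbouring NF-kB matches may overlap. The windows are chr11:102897201-102897450 (minus strand) for Gfap, chr2:13574061-13574310 (plus strand) for Vim, chr2:102901666-102901915 (minus strand) for Cd44, chr2:32387740-32387989 (minus strand) for Lcn2 and chr5:7960222-7960471 (plus strand) for Steap4.
Gfap: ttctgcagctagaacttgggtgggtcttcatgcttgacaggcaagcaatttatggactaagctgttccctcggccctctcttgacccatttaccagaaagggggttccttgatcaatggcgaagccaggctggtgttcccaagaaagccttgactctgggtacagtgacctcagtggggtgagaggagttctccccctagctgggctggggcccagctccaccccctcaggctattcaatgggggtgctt
Vim: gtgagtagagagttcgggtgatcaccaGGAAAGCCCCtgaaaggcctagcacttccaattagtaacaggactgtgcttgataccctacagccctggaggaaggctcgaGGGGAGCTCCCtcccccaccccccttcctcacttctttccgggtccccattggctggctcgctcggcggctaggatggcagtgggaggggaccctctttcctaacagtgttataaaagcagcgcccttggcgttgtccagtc
Cd44: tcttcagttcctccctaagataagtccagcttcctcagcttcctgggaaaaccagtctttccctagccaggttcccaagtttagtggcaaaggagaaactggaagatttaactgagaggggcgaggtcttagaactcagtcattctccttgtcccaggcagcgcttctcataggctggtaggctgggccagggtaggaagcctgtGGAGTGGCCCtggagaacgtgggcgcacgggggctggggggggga
Lcn2: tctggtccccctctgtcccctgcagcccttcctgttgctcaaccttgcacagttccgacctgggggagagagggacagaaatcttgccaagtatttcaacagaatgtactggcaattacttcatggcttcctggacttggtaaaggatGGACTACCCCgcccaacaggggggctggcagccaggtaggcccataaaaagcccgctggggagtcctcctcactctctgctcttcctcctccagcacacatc
Steap4: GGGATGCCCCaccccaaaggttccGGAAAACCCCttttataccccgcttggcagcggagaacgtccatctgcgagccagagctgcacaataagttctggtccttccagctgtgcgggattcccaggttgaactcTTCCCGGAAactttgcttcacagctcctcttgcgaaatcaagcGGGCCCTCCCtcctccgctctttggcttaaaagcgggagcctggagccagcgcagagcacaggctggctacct

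Of the 7 genes whose entries were used, 1 held the STAT motif (Steap4, at bases -116 to -108 from the start). The AP-1 motif was held by 1 (Cp, at bases -177 to -171) and the NF-kB motif by 6. Among all 32851 promoter windows of the same 250 bases, 7.02% held the STAT motif, 6.75% the AP-1 motif and 45.8% the NF-kB motif, so that the last is common by its letters alone. The Gfap window held none of the 3 motifs. Vim held the NF-kB motif at bases -223 to -214 and, overlapping, at -142 to -133 and -141 to -132, Lcn2 at -102 to -93 and Cd44 at -45 to -36. The 3 genes that passed the test thus had no motif of the 3 in common within these windows.

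Levels per exon length (RPKM, the CPM value divided by the exon length in kilobases) ranked the genes in the Plekhg5+/+ cords. Gfap was highest with 374 ± 64.6 RPKM (SD, n = 3), followed by Aqp4 with 109 ± 5.15, Vim with 53.3 ± 11.1, S100a10 with 36.0 ± 6.37 and Lcn2 with 20.7 ± 7.97 RPKM. Cp with 5.56 ± 0.956, Cd44 with 2.55 ± 0.174, Osmr with 1.78 ± 0.409 and Steap4 with 0.773 ± 0.465 RPKM were the lowest. Vim and S100a10 were the only neighbours in this order whose ranges of mean ± 1 SD met. Steap4 rested on 19 to 127 counts per library, while Gfap had 42355 or more in each.

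**Figure D1:**
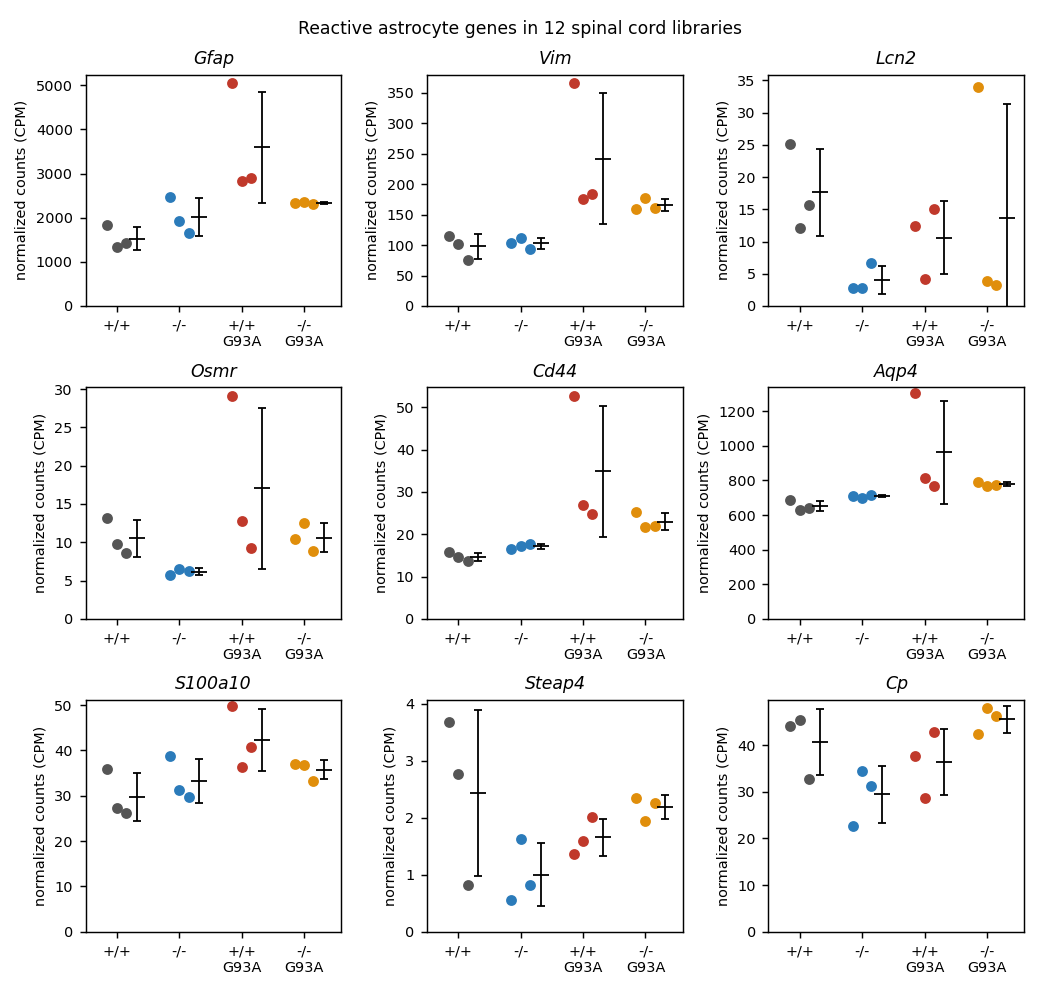
Normalized counts (CPM, linear axes from 0) of each of the 9 genes in the 3 libraries (points, replicates 1 to 3 from left to right) of the 4 genotypes, with the mean and SD in black (the lower SD bar of Lcn2 in Plekhg5-/- SOD1-G93A is cut at 0). Gfap, Vim and Cd44 are highest in Plekhg5+/+ SOD1-G93A libraries, where replicate 1 reaches 5054 CPM for Gfap, and Lcn2 is high in 1 Plekhg5-/- SOD1-G93A library with 34.0 CPM.

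Gfap, Vim and Cd44 rose in the spinal cord of Plekhg5+/+ mice that carried SOD1-G93A. These were 3 of the 9 genes, and 2.47% of all genes tested were called in this comparison. Their log2 fold changes were 1.23 (SE 0.221, adjusted p = 0.0198) for Gfap, 1.31 (SE 0.255, adjusted p = 0.0273) for Vim and 1.25 (SE 0.227, adjusted p = 0.0198) for Cd44 in edgeR's quasi-likelihood test with Benjamini-Hochberg adjustment over all genes tested. Aqp4 with 0.56 (adjusted p = 0.0687) and S100a10 with 0.51 (adjusted p = 0.0795) did not pass. The median of the 9 genes was 0.56, and that of all genes tested was -0.0010. Every transgenic library lay above every control library for 5 of the 9 genes, Gfap, Vim, Cd44, Aqp4 and S100a10, as it did for 11.6% of all genes. The calls depended on single control libraries. Without Plekhg5+/+ replicate 1 the log2 fold changes were 1.38 for Gfap (adjusted p = 0.0692), 1.44 for Vim (adjusted p = 0.0832) and 1.30 for Cd44 (adjusted p = 0.0824), and without replicate 2 they were 1.14, 1.34 and 1.25 (adjusted p = 0.111, 0.122 and 0.105). Vim was also lost without replicate 3 (adjusted p = 0.0546), and the number of genes called fell from 498 to 4 without replicate 1 and to 2 without replicate 2. Without Plekhg5+/+ SOD1-G93A replicate 1 the 3 calls were kept, with smaller log2 fold changes of 0.91, 0.88 and 0.82, and the median of the 9 genes was 0.28. A fit of only the 2 genotypes compared called none of the 3, with log2 fold changes of 1.22, 1.29 and 1.23 (adjusted p = 0.0955, 0.146 and 0.124).

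In Plekhg5-/- mice, 0 of the 9 genes passed the same test for SOD1-G93A against no transgene (edgeR, adjusted p of 0.573 to 0.953), where 0.00496% of all genes were called. An unadjusted p under 0.05 was found for 3 of the 9, and for 1084 of the 20155 genes tested. DESeq2 called 0 of the 9 as well. All 9 log2 fold changes were above 0, with a median of 0.63 against -0.0049 for all genes tested. Without Plekhg5-/- SOD1-G93A replicate 1 the median of the 9 was 0.35. The libraries of the 2 groups did not overlap for 6 genes, Vim, Osmr, Cd44, Aqp4, Steap4 and Cp, which were higher in the transgenic mice, as were 7.25% of all genes. When only these 2 genotypes were fitted, Vim passed (log2 fold change 0.68, adjusted p = 0.0285).

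**Figure D2:**
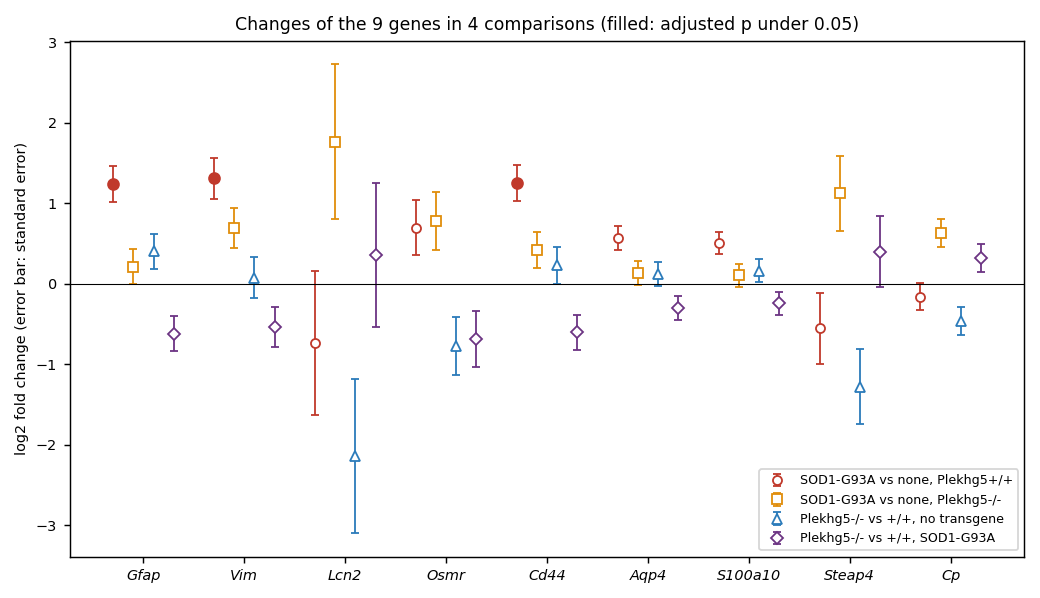
Log2 fold change (vertical axis, bars show the standard error) of each of the 9 genes in the comparisons of SOD1-G93A against no transgene in Plekhg5+/+ and Plekhg5-/- mice and of Plekhg5-/- against Plekhg5+/+ mice without and with the transgene. Filled points passed an adjusted p of 0.05, which were Gfap, Vim and Cd44 in Plekhg5+/+ mice alone, and Lcn2 and Steap4 have the longest bars.

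Gfap (chromosome 11, 102887336 to 102897200, minus strand) encodes the intermediate filament that defines astrocytes in histology. It had 1828, 1333 and 1421 CPM in Plekhg5+/+, 2479, 1920 and 1651 CPM in Plekhg5-/-, 5054, 2825 and 2897 CPM in Plekhg5+/+ SOD1-G93A and 2336, 2363 and 2300 CPM in Plekhg5-/- SOD1-G93A libraries. The Plekhg5-/- SOD1-G93A libraries were the most even of the 4 genotypes, with a coefficient of variation of 1.35%, and lay within the range of the Plekhg5-/- libraries without the transgene. They lay below all 3 Plekhg5+/+ SOD1-G93A libraries, with a log2 fold change of -0.62 (SE 0.219, adjusted p = 0.517, edgeR), which was -0.29 without Plekhg5+/+ SOD1-G93A replicate 1. Without the transgene, the difference between Plekhg5-/- and Plekhg5+/+ mice was 0.40 (SE 0.219, adjusted p = 0.956) and the libraries overlapped.

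Vim (chromosome 2, 13574311 to 13582826, plus strand) encodes vimentin, a filament protein of immature and reactive astrocytes. Its levels were 115, 102 and 75.5 CPM in Plekhg5+/+, 104, 112 and 92.8 CPM in Plekhg5-/-, 366, 175 and 184 CPM in Plekhg5+/+ SOD1-G93A and 160, 178 and 161 CPM in Plekhg5-/- SOD1-G93A libraries. All 6 transgenic libraries were thus above all 6 others. The share of all genes separated in this way was not counted, here and for Cd44 and Aqp4 below. Across both Plekhg5 genotypes, the averaged log2 fold change with SOD1-G93A was 1.00 (SE 0.179, adjusted p = 0.0329, edgeR), the largest of the 9 genes. The 2 transgenic groups overlapped, with a difference of -0.54 between Plekhg5-/- and Plekhg5+/+ (SE 0.251, adjusted p = 0.578), which was -0.11 without Plekhg5+/+ SOD1-G93A replicate 1.

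Cd44 (chromosome 2, 102811141 to 102901669, minus strand) encodes the receptor for hyaluronan, an adhesion molecule of fibrous and reactive astrocytes. It had 15.7, 14.6 and 13.7 CPM in Plekhg5+/+, 16.6, 17.1 and 17.8 CPM in Plekhg5-/-, 52.7, 27.0 and 24.9 CPM in Plekhg5+/+ SOD1-G93A and 25.2, 21.6 and 22.0 CPM in Plekhg5-/- SOD1-G93A libraries. As for Vim, all 6 transgenic libraries were above the 6 others. The averaged log2 fold change was 0.83 (SE 0.160, adjusted p = 0.0354, edgeR). Cd44 and Vim were the 2 of the 9 genes called in the averaged comparison, in which 1.22% of all genes were called, and Gfap just missed with 0.72 (SE 0.155, adjusted p = 0.0521). Leaving out any 1 of the Plekhg5+/+, Plekhg5-/- or Plekhg5-/- SOD1-G93A libraries ended both calls, with adjusted p-values of 0.0513 to 0.0941 for Vim and 0.0520 to 0.102 for Cd44. The log2 fold changes stayed between 0.78 and 1.08 for Vim and between 0.62 and 0.93 for Cd44 with each of the 12 libraries left out.

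Aqp4 encodes the water channel of astrocyte endfeet, the processes that line blood vessels. It had 687, 630 and 639 CPM in Plekhg5+/+, 711, 701 and 717 CPM in Plekhg5-/-, 1304, 814 and 771 CPM in Plekhg5+/+ SOD1-G93A and 789, 769 and 777 CPM in Plekhg5-/- SOD1-G93A libraries. All 6 transgenic libraries were again above the 6 others, a separation whose share over all genes was not counted. The spread was small in 3 genotypes, with a coefficient of variation of 4.74% in Plekhg5+/+, 1.15% in Plekhg5-/- and 1.33% in Plekhg5-/- SOD1-G93A mice, against 30.8% in Plekhg5+/+ SOD1-G93A mice, where replicate 1 stood apart. DESeq2 called Aqp4 for SOD1-G93A in Plekhg5+/+ mice (log2 fold change 0.55, adjusted p = 0.00818), and without Plekhg5+/+ SOD1-G93A replicate 1 it was 0.28 by edgeR (adjusted p = 0.0529). With Plekhg5+/+ SOD1-G93A replicate 2 or 3 left out, Aqp4 passed (adjusted p = 0.0329 and 0.0188).

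S100a10 (chromosome 3, 93554940 to 93564645, plus strand) encodes p11, which binds annexin A2 and brings proteins to the cell membrane. It had 35.8, 27.3 and 26.2 CPM in Plekhg5+/+, 38.7, 31.2 and 29.8 CPM in Plekhg5-/-, 49.8, 36.3 and 40.7 CPM in Plekhg5+/+ SOD1-G93A and 37.1, 36.8 and 33.3 CPM in Plekhg5-/- SOD1-G93A libraries. Its differences were the smallest among the genes that did not overlap in Plekhg5+/+ mice, and in Plekhg5-/- mice the 2 groups overlapped, with a log2 fold change of 0.10 (SE 0.140, adjusted p = 0.953, edgeR). DESeq2 called it in Plekhg5+/+ mice with 0.50 (adjusted p = 0.0208), as did limma voom with sample quality weights with 0.57 (adjusted p = 0.0476). It also passed without Plekhg5+/+ SOD1-G93A replicate 2 (edgeR, adjusted p = 0.0426).

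Osmr (chromosome 15, 6813568 to 6874968, minus strand) encodes the receptor subunit for oncostatin M, a cytokine of the interleukin-6 family that signals through gp130 and STAT3. Its levels were 13.2, 9.76 and 8.54 CPM in Plekhg5+/+, 5.68, 6.54 and 6.22 CPM in Plekhg5-/-, 29.0, 12.8 and 9.21 CPM in Plekhg5+/+ SOD1-G93A and 10.4, 12.6 and 8.80 CPM in Plekhg5-/- SOD1-G93A libraries. The Plekhg5-/- libraries without the transgene were below all other 9, with a log2 fold change of -0.77 against Plekhg5+/+ (SE 0.361, adjusted p = 0.937, edgeR) that did not pass. In Plekhg5+/+ mice the transgenic libraries overlapped the controls, and the log2 fold change of 0.70 (SE 0.346, adjusted p = 0.325) was 0.065 without Plekhg5+/+ SOD1-G93A replicate 1. In Plekhg5-/- mice it was 0.78 (SE 0.360, adjusted p = 0.930) with no overlap.

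Lcn2 (chromosome 2, 32384637 to 32387739, minus strand) encodes lipocalin 2, which binds bacterial iron carriers and is secreted by reactive astrocytes and neutrophils. It had 25.2, 12.1 and 15.6 CPM in Plekhg5+/+, 2.75, 2.71 and 6.59 CPM in Plekhg5-/-, 12.4, 4.26 and 15.1 CPM in Plekhg5+/+ SOD1-G93A and 34.0, 3.83 and 3.19 CPM in Plekhg5-/- SOD1-G93A libraries. Its highest and nearly its lowest levels were found within 1 genotype, and its coefficient of variation reached 129%. The 3 Plekhg5-/- libraries without the transgene were below the 3 Plekhg5+/+ libraries, with a log2 fold change of -2.14 (SE 0.961, adjusted p = 0.937, edgeR) that did not pass. For SOD1-G93A it was -0.73 (SE 0.892, adjusted p = 0.723) in Plekhg5+/+ and 1.76 (SE 0.961, adjusted p = 0.950) in Plekhg5-/- mice. The latter value rested on Plekhg5-/- SOD1-G93A replicate 1, without which it was -0.19.

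Steap4 (chromosome 5, 7960472 to 7982213, plus strand) encodes a metalloreductase that reduces iron and copper for uptake, and Cp (chromosome 3, 19956933 to 20009750, plus strand) encodes ceruloplasmin, a copper-carrying ferroxidase whose membrane-bound form in astrocytes helps export iron. Steap4 had 3.68, 2.77 and 0.827 CPM in Plekhg5+/+, 0.556, 1.63 and 0.820 CPM in Plekhg5-/-, 1.37, 1.58 and 2.01 CPM in Plekhg5+/+ SOD1-G93A and 2.34, 1.94 and 2.25 CPM in Plekhg5-/- SOD1-G93A libraries. Cp had 44.1, 45.4 and 32.7 CPM in Plekhg5+/+, 22.6, 34.5 and 31.2 CPM in Plekhg5-/-, 37.7, 28.7 and 42.8 CPM in Plekhg5+/+ SOD1-G93A and 42.5, 48.0 and 46.2 CPM in Plekhg5-/- SOD1-G93A libraries. For both genes the Plekhg5-/- libraries without the transgene had the lowest mean and every Plekhg5-/- SOD1-G93A library lay above them. With SOD1-G93A in Plekhg5-/- mice the log2 fold change was 1.12 (SE 0.464, adjusted p = 0.892, edgeR) for Steap4 and 0.63 (SE 0.173, adjusted p = 0.573) for Cp. In Plekhg5+/+ mice the values were below 0, with -0.55 (SE 0.442, adjusted p = 0.555) for Steap4 and -0.16 (SE 0.172, adjusted p = 0.677) for Cp, and the groups overlapped.

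Loss of Plekhg5 without the transgene left 0 of the 9 genes past the test (edgeR, lowest adjusted p = 0.929), where 0.0298% of all genes were called. An unadjusted p under 0.05 was found for 2 of the 9, and for 1073 of the 20155 genes tested. DESeq2 called 0 of the 9. Lcn2 and Osmr were lower in every Plekhg5-/- library than in every Plekhg5+/+ library, 2 of the 9 genes against 3.99% of all genes. Cd44 and Aqp4 were higher without overlap, 2 of the 9 genes against 4.72% of all genes, by log2 fold changes of 0.23 (SE 0.229) and 0.12 (SE 0.149). The median of the 9 genes was 0.07, and that of all genes tested was 0.0054.

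Among SOD1-G93A mice, loss of Plekhg5 again left 0 of the 9 genes past the test (edgeR, adjusted p of 0.517 to 0.912), where 0.0347% of all genes were called. DESeq2 called 0 of the 9. An unadjusted p under 0.05 was found in edgeR for 2 of the 9, and for 1741 of the 20155 genes tested. Gfap was the only gene of the 9 whose libraries did not overlap, and 10% of all genes were lower without overlap. For 6 of the 9 genes the log2 fold change was below 0, and the median was -0.31 against -0.0097 for all genes tested. Without Plekhg5+/+ SOD1-G93A replicate 1, the median was -0.0575. These Plekhg5+/+ SOD1-G93A libraries also enter the comparison with Plekhg5+/+ mice, so that the values of both comparisons move together. Cd44 had 1.25 with SOD1-G93A in Plekhg5+/+ mice and -0.61 with loss of Plekhg5 in SOD1-G93A mice, and Vim had 1.31 and -0.54. These became 0.82 and -0.18 for Cd44 and 0.88 and -0.11 for Vim without Plekhg5+/+ SOD1-G93A replicate 1.

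Whether the response to SOD1-G93A depended on Plekhg5 was tested with the interaction of both. It passed for 0 of the 9 genes and for 0% of all genes in edgeR. An unadjusted p under 0.05 was found for 4 of the 9, and for 1824 of the 20155 genes tested. The interaction term was -1.02 (SE 0.309, adjusted p = 0.406) for Gfap and -0.83 (SE 0.318, adjusted p = 0.479) for Cd44, that is, a smaller difference with SOD1-G93A in Plekhg5-/- mice. It was 0.79 (SE 0.244, adjusted p = 0.406) for Cp and 1.67 (SE 0.641, adjusted p = 0.473) for Steap4, in the opposite direction. The term was -0.70 for Gfap, -0.40 for Cd44, 0.82 for Cp and 1.55 for Steap4 without Plekhg5+/+ SOD1-G93A replicate 1. DESeq2 called 95 genes without and 112 with a prior on fold changes, of which 0 were among the 9. Calls in Plekhg5+/+ and not in Plekhg5-/- mice therefore do not show a difference between them.

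Other genes of reactive astrocytes, from lists of known genes, were read in the same fit. Of 11 further pan-reactive genes, 7 rose with SOD1-G93A in Plekhg5+/+ mice, with a median log2 fold change of 1.09 against -0.0010 for all genes. Among them were C3, the complement component (1.09, SE 0.160, adjusted p = 0.0125, edgeR), Timp1, an inhibitor of matrix metalloproteinases (3.08, SE 0.493, adjusted p = 0.0140), and S1pr3, a receptor for sphingosine 1-phosphate (1.28, SE 0.275, adjusted p = 0.0343). C3 was counted in this list and not with the A1-type genes, where it is often placed. Of 10 tested A2-type genes besides S100a10, 4 rose, Ptx3 by 2.35, Tgm1 by 5.36, Emp1 by 1.03 and Cd109 by 1.24, with a median of 0.83 for the list. Tgm1 was below 1 CPM in the controls, with a mean of 0.0905 CPM, so its fold change is imprecise. In the Plekhg5+/+ SOD1-G93A libraries Tgm1 had 8.57, 1.91 and 1.17 CPM and Cd109 had 27.4, 11.3 and 11.2 CPM, so that replicate 1 was again far above the others. Without it the 4 genes still passed in edgeR, Ptx3 with 1.81 (adjusted p = 0.00363), Tgm1 with 4.02 (adjusted p = 0.000863), Emp1 with 0.66 (adjusted p = 0.0407) and Cd109 with 0.68 (adjusted p = 0.0224), and the median of the list was 0.41. Of 11 A1-type genes, a list without C3, 1 rose, Psmb8 of the immunoproteasome with 0.98 (SE 0.194, adjusted p = 0.0235), and the median was 0.73. In Plekhg5-/- mice 0 genes of the 3 lists passed, with medians of 0.58, 0.58 and 0.35. Without Plekhg5+/+ SOD1-G93A replicate 1, 6 of the 11 pan-reactive and 2 of the 11 A1-type genes passed in Plekhg5+/+ mice, with medians of 0.75 and 0.31. Without Plekhg5+/+ replicate 1 or without replicate 2, 0 genes of the 3 lists passed.

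Markers of astrocytes as such stayed near 0 in their median. Of the 14 general astrocyte markers, 1 rose with SOD1-G93A in Plekhg5+/+ mice, the transcription factor Sox9 (0.81, SE 0.156, adjusted p = 0.0206, edgeR), and the median was 0.10. Without Plekhg5+/+ replicate 1 or without replicate 2, 0 of the 14 passed, with medians of 0.13 and 0.11. Aldh1l1, a folate enzyme, had 0.34 (SE 0.118, adjusted p = 0.149), and Slc1a3, the glutamate transporter GLAST, had 0.11 (SE 0.127, adjusted p = 0.694). Against the mean log2 level of the 14 markers in the same library, Gfap was 1.07, Vim 1.12, Cd44 1.04 and Aqp4 0.40 higher on the log2 scale with SOD1-G93A in Plekhg5+/+ mice, each with p = 0.1 in a two-sided exact permutation test, the smallest that 3 against 3 libraries allow. S100a10 was 0.38 higher (p = 0.2, exact permutation test). The differences were 0.83 for Gfap, 0.81 for Vim, 0.74 for Cd44, 0.20 for Aqp4 and 0.30 for S100a10 without Plekhg5+/+ SOD1-G93A replicate 1. With Aldh1l1 as the only reference the direction of these 5 genes was unchanged.

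Partners of the single genes were read in the same way. Of 13 tested genes of oncostatin M and gp130 signalling, Osm, the ligand of Osmr, rose with SOD1-G93A in Plekhg5+/+ mice by 2.17 (SE 0.382, adjusted p = 0.0165, edgeR), from a mean of 0.162 CPM. Lifr, the receptor that pairs with gp130 for leukemia inhibitory factor, fell by 0.36 on the log2 scale (SE 0.0618, adjusted p = 0.0156), and the list's median was 0.05. Of 14 tested iron and copper genes 1 rose, the ferritin light chain Ftl1 (0.57, SE 0.125, adjusted p = 0.0351), and of 9 CD44 ligands and partners 1 rose, Msn, which links CD44 to actin (0.57, SE 0.129, adjusted p = 0.0392). Ftl1 with 0.40 (adjusted p = 0.108) and Msn with 0.36 (adjusted p = 0.0585) did not pass in edgeR without Plekhg5+/+ SOD1-G93A replicate 1. Of the 9 genes of the endfoot and dystrophin complex, which anchors aquaporin 4, 0 passed, and their median was 0.01. Of the 4 annexins that go with S100a10, 0 passed, with 0.21 (adjusted p = 0.308) for Anxa2. Without Plekhg5+/+ replicate 1 or without replicate 2, 0 genes of any of these partner lists passed, so the calls of Osm, Lifr, Ftl1 and Msn were lost.

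**Figure D3:**
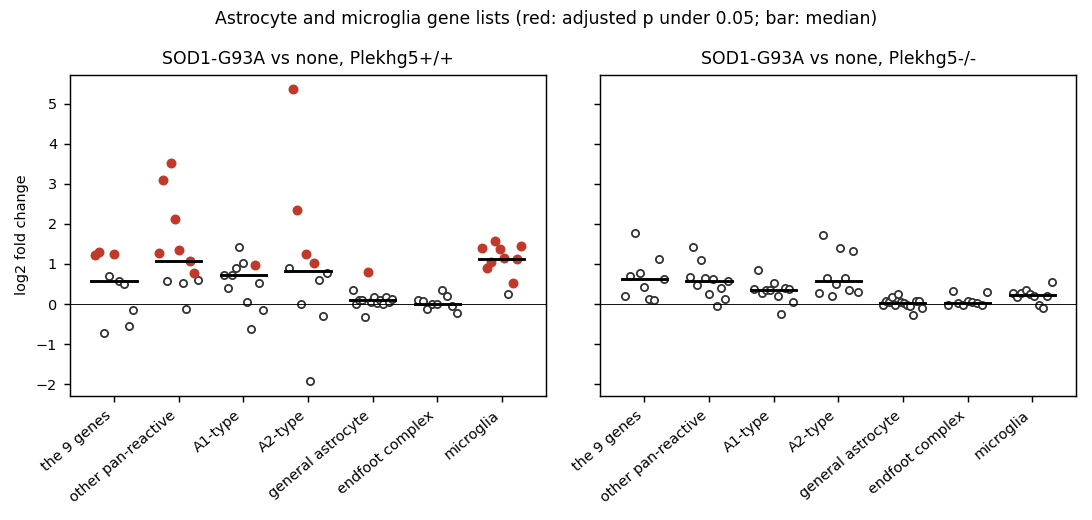
Log2 fold change of each gene (point) of 7 gene lists for SOD1-G93A against no transgene, in Plekhg5+/+ mice (left) and Plekhg5-/- mice (right), with the median of each list as a bar and genes with an adjusted p under 0.05 in red. In Plekhg5+/+ mice 9 of 10 microglia markers and 7 of 11 other pan-reactive genes are red, while the medians of the general astrocyte markers (0.10, with Sox9 red at 0.81) and of the endfoot complex (0.01) lie near 0, and no gene is red in Plekhg5-/- mice.

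Markers of other cell types moved with several of the genes. The 10 microglia markers, all detected in every library, summed to 452 to 525 CPM in Plekhg5+/+, 496 to 677 CPM in Plekhg5-/-, 832 to 1516 CPM in Plekhg5+/+ SOD1-G93A and 632 to 707 CPM in Plekhg5-/- SOD1-G93A libraries. Of these markers 9 rose with SOD1-G93A in Plekhg5+/+ mice, with a median log2 fold change of 1.13, among them Aif1 (1.41, adjusted p = 0.0198, edgeR) and Itgam (1.06, adjusted p = 0.0146). The sums of the Plekhg5+/+ SOD1-G93A libraries were 1516, 832 and 895 CPM, in the same order as Gfap, and those of the Plekhg5-/- libraries were 677, 579 and 496 CPM, again in the order of Gfap. The order differed from that of Gfap in the Plekhg5+/+ libraries, with sums of 509, 452 and 525 CPM, and in the Plekhg5-/- SOD1-G93A libraries, with 707, 682 and 632 CPM. Without Plekhg5+/+ SOD1-G93A replicate 1, 8 of the 10 markers passed, with a median of 0.83. Without Plekhg5+/+ replicate 1 or without replicate 2, 0 of the 10 passed, with medians of 1.13 and 1.07. Of the markers of endothelial cells, oligodendrocytes and motoneurons 1 of 8 each passed in the same comparison, Ly6c1 with -0.56, Opalin with 0.76 and Chodl with -0.83, and 0 of those of ependymal cells, oligodendrocyte progenitors, neurons and red blood cells. Ly6c1 with -0.55 (adjusted p = 0.118) and Chodl with -0.67 (adjusted p = 0.117) did not pass in edgeR without Plekhg5+/+ SOD1-G93A replicate 1. Ly6c1, Opalin and Chodl did not pass either without Plekhg5+/+ replicate 1 or without replicate 2. The part of microglia, endothelial cells and fibroblasts in the levels of Vim and Cd44, which they also express, was not tested.

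The 8 neutrophil markers summed to 26.6, 15.1 and 73.6 CPM in Plekhg5+/+, 35.6, 31.8 and 83.4 CPM in Plekhg5-/-, 155, 45.7 and 126 CPM in Plekhg5+/+ SOD1-G93A and 270, 39.9 and 23.8 CPM in Plekhg5-/- SOD1-G93A libraries. The library with the highest sum was the one with the highest Lcn2, Plekhg5-/- SOD1-G93A replicate 1, and within the Plekhg5-/- mice without the transgene both were highest in replicate 3. In Plekhg5+/+ mice, however, Lcn2 was highest in replicate 1 and the sum in replicate 3, and in Plekhg5+/+ SOD1-G93A mice Lcn2 was highest in replicate 3 and the sum in replicate 1. In the Plekhg5+/+ mice, where Lcn2 was 12.1 to 25.2 CPM, the sums were no higher than in the Plekhg5-/- mice, where Lcn2 was 2.71 to 6.59 CPM. None of the 8 markers passed the test for SOD1-G93A in either Plekhg5 genotype. The part of neutrophils in the Lcn2 level was not tested.

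For Steap4 and Cp, markers of Schwann cells, the myelinating cells of nerve roots, were read beside them. Their 6 genes summed to 298, 351 and 126 CPM in Plekhg5+/+, 108, 128 and 167 CPM in Plekhg5-/-, 120, 214 and 180 CPM in Plekhg5+/+ SOD1-G93A and 358, 325 and 464 CPM in Plekhg5-/- SOD1-G93A libraries. The 5 libraries with the highest sums, 2 of Plekhg5+/+ and 3 of Plekhg5-/- SOD1-G93A mice, included the 2 with the highest Steap4 and the 2 with the highest Cp. The 8 meningeal fibroblast markers summed to 266 to 464 CPM in Plekhg5-/- SOD1-G93A and 164 to 282 CPM in Plekhg5-/- libraries. Their sums were 182 to 284 CPM in Plekhg5+/+ and 201 to 303 CPM in Plekhg5+/+ SOD1-G93A libraries. How much nerve root and meninges contributed to Steap4 and Cp was not tested.

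**Figure D4:**
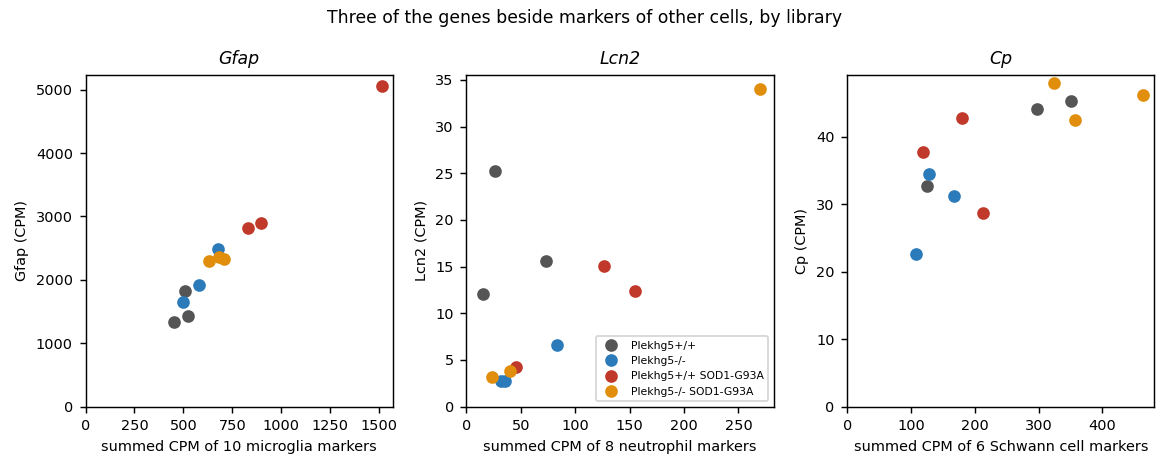
Level of Gfap against the summed level of 10 microglia markers, of Lcn2 against 8 neutrophil markers and of Cp against 6 Schwann cell markers (all in CPM, linear axes from 0), with 1 point per library coloured by genotype. Gfap and the microglia markers are both highest in 1 Plekhg5+/+ SOD1-G93A library (5054 and 1516 CPM), and Lcn2 and the neutrophil markers in 1 Plekhg5-/- SOD1-G93A library (34.0 and 270 CPM).

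Across the 12 libraries the 9 genes fell into patterns by their log2 CPM, given as a description over libraries that share genotypes. Cd44 was most like Aqp4 (Pearson r = 0.97) and Vim most like Cd44 (r = 0.96), and Gfap was most like S100a10 (r = 0.94). Within genotypes, after removal of the genotype means, these values were 0.98, 0.86 and 0.90. Osmr was most like Vim (r = 0.79). Steap4 and Cp were most like each other (r = 0.84), with -0.05 and -0.06 to Gfap. Lcn2 had its highest value with Steap4 (r = 0.40), which was 0.11 within genotypes. The genes outside the 9 that were most like their mean were Ms4a6c (r = 0.96), Glis3 (r = 0.95), Pf4 (r = 0.95), Hsp25-ps1 (r = 0.94) and Cmtm7 (r = 0.94).

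**Figure D5:**
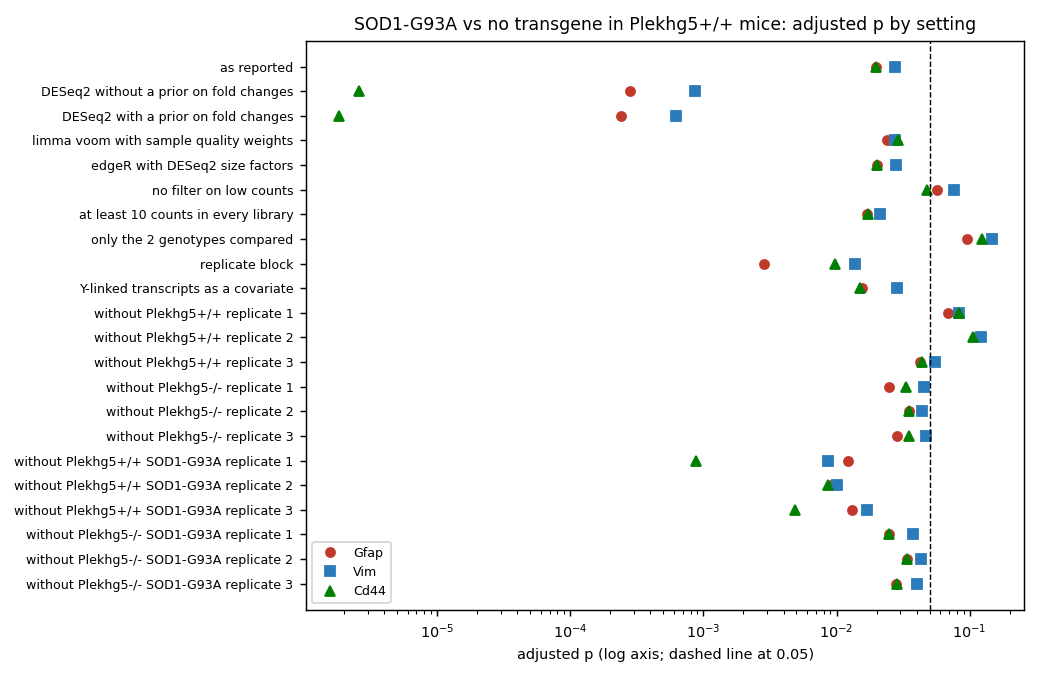
Adjusted p (log axis, dashed line at 0.05) of Gfap, Vim and Cd44 for SOD1-G93A against no transgene in Plekhg5+/+ mice under the reported setting and each alternative, including each library left out in turn. All 3 genes lie above 0.05 without Plekhg5+/+ replicate 1 or 2 and with only the 2 genotypes compared, and far below it in DESeq2.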

How the data were processed

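The authors enriched RNA for poly-A, sequenced stranded libraries, trimmed reads with cutadapt 2.4, mapped them with STAR 2.7.2b to GRCm38.p6 and human SOD1, and counted them by strand on RefSeq exons with featureCounts 1.6.4, with shared reads split into fractions. The deposited table thus holds raw expected counts, which were rounded here. Columns were matched to mice by genotype and number. The filter filterByExpr kept 20155 of 45906 genes. edgeR 4.0.16 (R 4.3.3) fitted the 4 genotypes together with TMM factors and robust quasi-likelihood, and p-values were adjusted by Benjamini-Hochberg over all genes tested, with a threshold of 0.05. Log2 CPM used a prior count of 2. At 30415643 to 38743628 counts per library, low genes such as Steap4 were imprecise. Alternatives were DESeq2 1.42.0, once with shrunken fold changes (a prior) and once without, limma voom (limma 3.58.1) with sample weights, DESeq2 size factors, 2 other filters, only 2 genotypes, a replicate block, Y-linked transcripts as a covariate and left-out libraries. On simulated data for SOD1-G93A in Plekhg5+/+ mice with 19956 genes, 83 of 100 genes changed 2-fold and 99 of 100 changed 4-fold were recovered, with 7 false calls. The simulation drew each gene independently with its fitted spread, changed no genes of very low level and held no deviating library. Its recovery therefore need not hold for these mice, whose calls depended on single libraries.

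The 9 genes and the lists were chosen with earlier results of these data known. Named from each list were up to 4 genes that passed in any comparison, with the smallest p in the averaged comparison, or else 2 with the smallest p there, plus Aldh1l1, Slc1a3, Aif1 and Itgam. Counts of mice of 1 genotype differed by 5.79 to 28.4 times the sampling noise (chi-square per degree of freedom), so none was a duplicate. Over all genes, the sample weights of limma voom were lowest for Plekhg5-/- replicate 1 (0.32) and Plekhg5+/+ replicate 1 (0.40). The weight of Plekhg5+/+ SOD1-G93A replicate 1 was 0.80. Plots were made with matplotlib 3.10.9.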

Additional observations from a re-analysis of the deposited data

Results flagged for a closer look

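For 6 genes, all 3 Plekhg5-/- libraries without the transgene lay on one side of the mean of the Plekhg5+/+ libraries, and all 3 Plekhg5-/- SOD1-G93A libraries lay on the other side of the mean of the Plekhg5+/+ SOD1-G93A libraries. How many of all genes tested met this rule was not counted, so the 6 cannot be read as particular to these genes. The difference between the log2 fold changes with and without SOD1-G93A was -1.02 for Gfap, -0.83 for Cd44, -0.43 for Aqp4 and -0.40 for S100a10, which were above 0 without the transgene and below 0 with it. Without Plekhg5+/+ SOD1-G93A replicate 1 these differences were -0.70, -0.40, -0.15 and -0.27, and the log2 fold change of Aqp4 with the transgene was -0.026. It was 1.67 for Steap4 and 0.79 for Cp, which were below 0 without the transgene and above 0 with it. For Steap4 the same opposition was seen from the other side, with libraries of SOD1-G93A mice lower in Plekhg5+/+ and higher in Plekhg5-/- mice, again with a difference of 1.67. The interaction test in edgeR, which is the test of this difference, gave adjusted p-values of 0.406 to 0.562 for these 6 genes, so that none passed.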

How the results depend on the processing

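For SOD1-G93A in Plekhg5+/+ mice, 498 genes and 3 of the 9 were called as reported. DESeq2 without and with a prior called 1159 and 1190 genes and 5 of the 9, limma voom 295 genes, no filter 1 of the 9, and only 2 genotypes 3 genes and 0 of the 9. With 1 library left out, the ranges were 2 to 771 genes, 0 to 5 of the 9 and a median of 0.28 to 0.70. The counts were lower without Plekhg5+/+ replicate 1 (4 genes) or 2 (2 genes). In Plekhg5-/- mice, DESeq2 called 45 and 41 genes, limma voom 7, a filter of 10 counts in every library 0, and only 2 genotypes 20 with 1 of the 9. DESeq2 with a prior moved the median of the 9 to 0.17. Left-out libraries gave 1 to 9 genes and medians of 0.35 to 0.75. For loss of Plekhg5, DESeq2 called 34 and 32 genes without the transgene and 72 and 114 with it, and only 2 genotypes 11 with it. Left-out libraries gave 5 to 59 and 4 to 8 genes, the 59 without Plekhg5+/+ replicate 3, and a median with the transgene of -0.50 to -0.0575. For the interaction, DESeq2 called 95 and 112 genes and no filter 1, and left-out libraries gave 0 to 40, the 40 without Plekhg5+/+ replicate 3, and medians of -0.48 to -0.15. None of the 9 was called for loss of Plekhg5 or the interaction under any alternative.

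Averaged over both Plekhg5 genotypes, 245 genes and 2 of the 9 became 811 and 821 genes and 4 of the 9 in DESeq2, 620 and 4 in limma voom, 412 genes with Y-linked transcripts as a covariate and 0 of the 9 with no filter. The median moved to 0.22 in DESeq2 with a prior and to 0.78 with the covariate. Left-out libraries gave 10 to 560 genes and 0 to 5 of the 9. Relative to general astrocyte markers, the median of the 9 ranged from 0.32 to 0.74 for SOD1-G93A in Plekhg5-/- mice and from -0.53 to -0.0557 for loss of Plekhg5 with the transgene, with 1 library left out. With Aldh1l1 as the only reference, the latter median went from -0.23 to 0.0012. Lcn2, Aqp4 and S100a10 turned from -0.23, -0.18 and -0.15 to 0.0012, 0.044 and 0.077. The direction of values that had not passed turned for Lcn2 with loss of Plekhg5 in SOD1-G93A mice (-0.25 in limma voom, -1.59 to 0.84 with 1 library left out), for Lcn2 with SOD1-G93A in Plekhg5-/- mice (-0.19 to 2.31) and averaged (-0.47 to 0.79), for Osmr in the interaction (-0.028 in DESeq2 with a prior, -0.21 to 0.72) and for Vim with loss of Plekhg5 alone (-0.087 to 0.21). The causes were not tested, also where a setting itself removes samples or genes.

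The labels do not say whether the replicate numbers pair the mice, and the numbers were not treated as pairs. The deviations of same-numbered libraries from their group means correlated at -0.16 to 0.32, with 5 of 18 pairs over 0.1. Those of other numbers correlated at -0.33 to 0.28, with 8 of 36 pairs over 0.1, and 6 of 12 libraries correlated best with their own number. These values cannot settle whether mice were paired. With a replicate block, 417 genes and 4 of the 9 were called in the averaged comparison and 4 of the 9 for SOD1-G93A in Plekhg5+/+ mice, where S100a10 was added (adjusted p = 0.0117, edgeR).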
